A study of Mus musculus with 2 samples.

Results

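The globin genes examined here are 8 genes of the mouse alpha and beta clusters, matched by symbol to NCBI gene numbers among the 41709 entries of the deposited tables: Hba-x, Hba-a1, Hba-a2 and Hbq1b of the alpha cluster, and Hbb-y, Hbb-bh1, Hbb-bs and Hbb-bt of the beta cluster. All 8 had a row and all 8 were measured, meaning that at least 1 library held 50 reads, as did 14569 entries overall. The RNA was polyadenylated RNA of whole lung from C57BL/6 embryos at stage E14.5. One library came from wild-type control lungs. The other is labelled with the genotype Prmt5 knockdown, and its title names Shh together with Prmt5. Each was a single pool of 7 lungs. The labels do not give the alleles, the driver or the cells in which a gene was altered, and no other treatment is named for either group. With 1 library per group there is no spread between replicates, so no p-value is given and every difference below lacks a replicate check.

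Haemoglobin carries oxygen in red blood cells as a tetramer of alpha-like and beta-like globin chains. In the mouse, primitive red cells that arise in the yolk sac use the embryonic chains Hba-x (zeta), Hbb-y (epsilon-y) and Hbb-bh1 (beta-H1) together with adult alpha chains, whereas definitive red cells, made in the fetal liver at mid-gestation, use the adult chains Hba-a1, Hba-a2, Hbb-bs and Hbb-bt. Each cluster has an embryonic gene at its start, with the adult genes further along. The lung is not a site of red cell formation in the embryo, and globin transcripts in whole lung are usually those of blood in its vessels. PRMT5, the methyltransferase named in the labels, has been described in human red cells as a partner in the silencing of fetal gamma-globin genes.

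Counted reads came to 22581490 in the control library and to 25829281 in the library labelled knockdown. Prmt5 had 2704 and 2127 reads (log2 ratio -0.43), and Shh had 1124 and 109 (log2 ratio -3.44). Ratios are knockdown over control after scaling by the trimmed mean of M values. The range after each is its 95% counting interval, which takes in counting error alone and no variation from pool to pool. A gene was called higher or lower when it differed by a factor of 1.5 or more with an interval that left out 1. In the knockdown library all 11 liver genes of a marker list were higher (log2 ratios 5.68 to 8.45, summed share of reads 0.00949% and 1.18%), as were all 10 heart genes (3.72 to 8.47, 0.0126% and 0.501%), and 8 of 10 lung epithelial genes were lower (-3.16 to 0.11 over the list, 0.178% and 0.0510%). The defining markers of lung epithelium were present in both libraries, Sftpc at 8880 and 1313 reads. The part of the other organs' RNA in the globin values was not tested.

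Globin transcripts were more abundant in the library labelled Prmt5 knockdown. The 8 genes took 265630 reads, 1.18% of the control library (exact interval 1.17% to 1.18%), and 923601 reads, 3.58% of the knockdown library (3.57% to 3.58%). After scaling, the sum was 3.28-fold higher (3.27 to 3.29). The sum hides a difference between adult and embryonic genes. Reads of the 4 adult genes went from 223215 to 857939 and were 3.63-fold higher (3.61 to 3.64), while reads of the 3 embryonic genes went from 42381 to 65284 and were 1.45-fold higher (1.44 to 1.47). The adult ratio was thus 2.50 times the embryonic ratio. In whole-lung RNA, more red cells, more globin RNA per red cell and RNA of other organs in the pool cannot be told apart.

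By the size rule 6 of the 8 genes were higher and none was lower, against 20.7% of all measured genes called higher and 12.3% called lower. The median log2 ratio of the 8 genes was 1.61, beside -0.0071 for all measured genes. The genes not past the rule were Hba-x and Hbb-y, both embryonic, with ratios of 1.35 and 1.47.

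**Figure D1:**
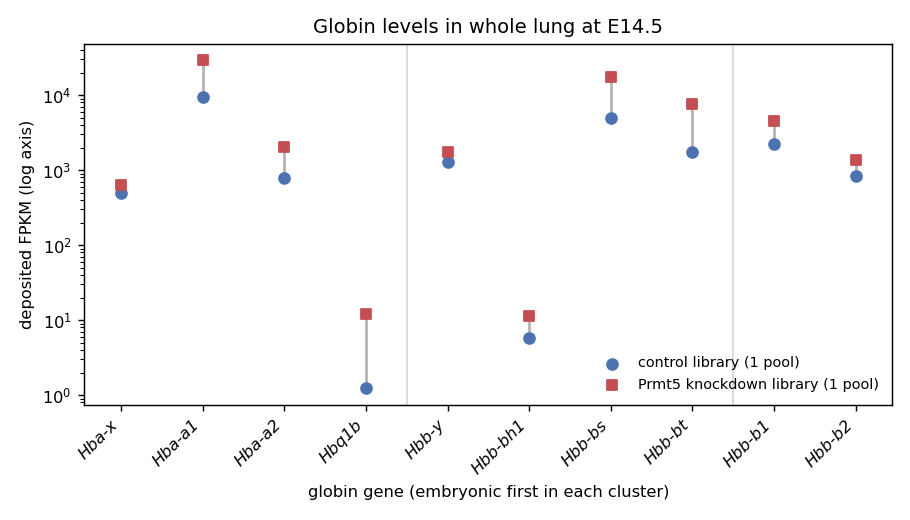
Deposited FPKM on a log axis for the 8 globin genes and for Hbb-b1 and Hbb-b2, in the control library (blue circles) and the Prmt5 knockdown library (red squares), each 1 pool of 7 lungs. Every square lies above its circle, and the gap is small for Hba-x (497 and 623) and Hbb-y (1287 and 1752) and wide for Hbb-bt (1735 and 7580).

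Among the adult alpha genes, Hba-a1 (NCBI gene 15122, chromosome 11, 32283672 to 32284486 on GRCm38) was counted at 117440 reads in control lung and 419071 in the knockdown library. Its deposited FPKM, a level scaled to gene length and library total, was 9304 and 29024, the highest of all entries in both libraries. The log2 ratio was 1.75 (1.74 to 1.76), or 3.37-fold higher. Hba-a2 (NCBI gene 110257, chromosome 11, 32296492 to 32297310), the other adult alpha gene, had 10082 and 29782 reads and an FPKM of 793 and 2048, ranking 86th and 18th. It was 2.79-fold higher (log2 1.48, 1.45 to 1.51). Hba-a1 stood 11.7 times above Hba-a2 per length in control lung and 14.2 times in the knockdown library.

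How reads were divided between these 2 genes limits that comparison, because their coding sequences of 429 bases differ at 1 position (C381T, Hba-a1 to Hba-a2, counted from the A of the start codon). The 41 coding bases around it are shown, from the GENCODE transcripts of GRCm38, with the differing base in capitals.
Hba-a1: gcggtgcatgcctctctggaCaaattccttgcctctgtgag
Hba-a2: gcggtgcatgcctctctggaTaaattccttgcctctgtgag
Of the 50-base windows of the Hba-a1 transcript, 67.5% occur unchanged in that of Hba-a2. The treatment of reads that fit both is not given in the sources used here, so the summed value is the safer one. Together the adult alpha genes had 127522 and 448853 reads and were 3.32-fold higher (3.30 to 3.34).

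Adult beta genes were higher by somewhat more. Hbb-bs (NCBI gene 100503605, chromosome 7, 103826523 to 103827928) was counted at 71009 reads in control lung and 285748 in knockdown lung, with an FPKM of 4921 and 17313, the second highest level in both. It was 3.80-fold higher (log2 1.92, 1.91 to 1.94). Hbb-bt (NCBI gene 101488143, chromosome 7, 103812524 to 103813923) had 24684 and 123338 reads and moved from rank 23 to rank 3 by FPKM. Its ratio was 4.71 (log2 2.24, 2.22 to 2.26), the largest among the 4 adult genes. Summed, the adult beta genes were 4.03-fold higher (4.004 to 4.06), a log2 difference of 0.28 from the adult alpha sum.

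The adult beta pair is as close as the alpha pair. Over 444 coding bases they differ at 1 position (C417T, Hbb-bs to Hbb-bt), shown in capitals in the 41 bases around it.
Hbb-bs: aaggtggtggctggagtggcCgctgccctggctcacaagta
Hbb-bt: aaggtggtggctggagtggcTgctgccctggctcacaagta
Of the 50-base windows of the Hbb-bt transcript, 58.3% occur unchanged in that of Hbb-bs. By the reads as deposited, Hbb-bt made up 25.8% of the pair in control lung (exact interval 25.5% to 26.1%) and 30.1% in the knockdown library (30.0% to 30.3%).

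A further pair of adult beta entries was counted apart from these. Hbb-b1 and Hbb-b2 are the adult beta genes of the Hbb-d haplotype, found in other mouse strains, whereas C57BL/6 carries the Hbb-s haplotype with Hbb-bs and Hbb-bt. Both deposited tables hold all 4 entries, so the older symbols do not stand for Hbb-bs and Hbb-bt here. Hbb-b1 had 31879 control reads and 73656 knockdown reads (log2 1.12, 1.11 to 1.14). Hbb-b2 had 11810 and 22270 reads (log2 0.83, 0.80 to 0.86). Both were called higher, yet by less than either member of the pair above. Of the reads at the 4 adult beta entries, Hbb-b1 and Hbb-b2 held 31.3% in control lung (31.1% to 31.6%) and 19.0% in the knockdown library (18.9% to 19.1%). Strain background and the division of reads between near-identical entries were not tested. With these reads added, the adult beta sum was 3.42-fold higher.

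The embryonic genes had smaller ratios than the adult members of their cluster. This does not extend to the further adult beta entries. Hbb-b1 (log2 1.12) and Hbb-b2 (0.83) both lay inside the interval of the embryonic Hbb-bh1 (log2 0.82 to 1.37). Hbb-y (NCBI gene 15135, chromosome 7, 103851754 to 103853207), the main embryonic beta gene in both libraries, had 35473 control reads and 55247 knockdown reads, with an FPKM of 1287 and 1752. Its ratio of 1.47 (1.45 to 1.49; log2 0.55) lay just under the size rule. Hba-x (NCBI gene 15126, chromosome 11, 32276600 to 32278116), the embryonic alpha gene, had 6748 and 9676 reads and an FPKM of 497 and 623. It had a ratio of 1.35 (1.31 to 1.40; log2 0.44), the smallest of the 8. Hbb-bh1 (NCBI gene 15132, chromosome 7, 103841638 to 103843162), an early embryonic beta gene, was scarce, with 160 and 361 reads and an FPKM of 5.79 and 11.4. It was 2.12-fold higher (1.76 to 2.58; log2 1.09) and so the only embryonic gene past the rule. Per length, Hbb-y exceeded Hbb-bh1 by 222 times in control lung and by 153 times in the knockdown library. Hbb-y and Hbb-bh1 share 76.8% of their coding bases with each other and 75.2% and 75.0% with Hbb-bs, and no 50-base window of their transcripts occurs in another member.

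Shares within a cluster do not depend on the scaling between libraries, and they set the adult and embryonic genes side by side directly. In the alpha cluster, Hba-x held 5.03% of the reads of Hba-x, Hba-a1 and Hba-a2 in control lung (exact interval 4.91% to 5.14%). In the knockdown library that share was 2.11% (2.07% to 2.15%). In the beta cluster, Hbb-y and Hbb-bh1 held 27.1% of the reads of the 4 genes in control lung (26.9% to 27.4%) and 11.97% in the knockdown library (11.87% to 12.06%). Both clusters thus had a lower embryonic share in the knockdown library. By deposited FPKM the beta values were 16.3% and 6.61%, since the lengths behind the FPKM of Hbb-y and Hbb-bh1 (1221 and 1224 bases) are 1.93 and 1.997 times those of their GENCODE transcripts. With GENCODE lengths they were 27.5% and 12.2%, and the direction was the same in each case.

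**Figure D2:**
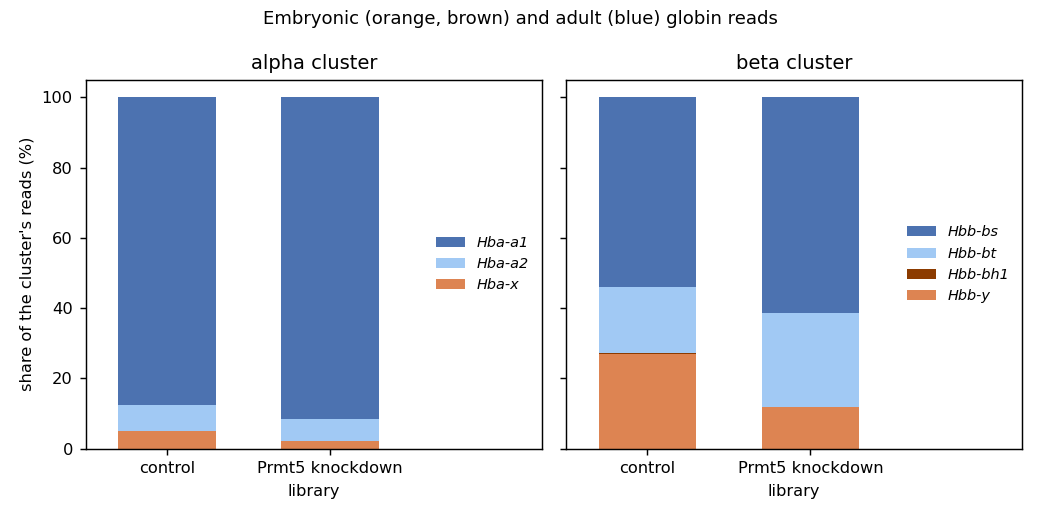
Stacked bars give the share of each gene in the reads of its cluster (percent, from 0 to 100), in the alpha cluster on the left and the beta cluster on the right, for the control and the Prmt5 knockdown library. Embryonic genes are orange and brown, adult genes blue, and the embryonic part of the beta bar is 27.1% in control lung and 11.97% in the knockdown library.

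Beside these, Hbq1b (NCBI gene 544763, chromosome 11, 32286964 to 32287912), a theta-globin gene with no settled role, had the fewest control reads and the largest ratio of the 8. It had 34 control reads and 378 knockdown reads, an FPKM of 1.23 and 11.99. It was 10.4-fold higher (7.37 to 15.4; log2 3.37). Its near copy Hbq1a, 94.3% identical in coding sequence, had 22 and 74 reads and was 3.13-fold higher (1.95 to 5.37). The authors' length for Hbq1b, 1221 bases, is 2.17 times its GENCODE transcript, so its FPKM is lower than its reads per GENCODE length would give.

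Among the 4 members of the beta cluster, with reads divided as deposited, the ratio increased with distance from Hbb-y. The adult beta entries Hbb-b1 (log2 1.12) and Hbb-b2 (0.83) were not placed and are left out of this order. Hbb-bh1 starts 10.05 kb from the start of Hbb-y, Hbb-bs 25.3 kb and Hbb-bt 39.3 kb, and the log2 ratios in that order were 0.55, 1.09, 1.92 and 2.24. The counting intervals of neighbours did not overlap, but they do not test this order. They take in neither variation between pools nor the division of reads between Hbb-bs and Hbb-bt. The alpha cluster had no such order. Hba-x, at its start, had the smallest ratio, Hba-a1 at 7.07 kb had 1.75, Hbq1b at 10.4 kb had 3.37, and Hba-a2 at 19.9 kb had 1.48. Other beta-like entries gave too few reads to place. Hbb-bh2 had 3 and 1 reads, and the pseudogene Hbb-bh0 had 32 and 42.

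**Figure D3:**
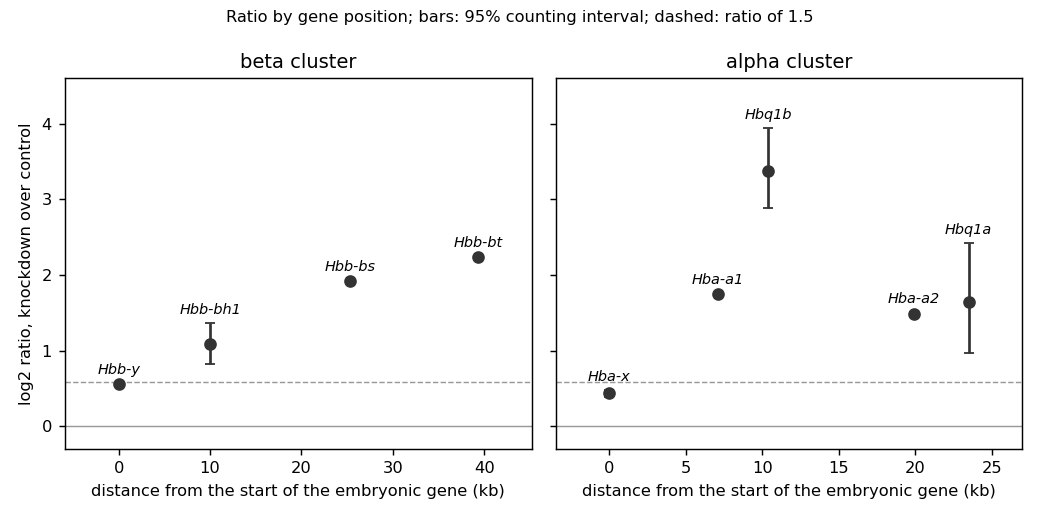
Log2 ratio of knockdown over control against the distance of each gene's start from that of the embryonic gene in kb, for the beta cluster on the left and the alpha cluster on the right. Bars are 95% counting intervals, the solid line is no difference and the dashed line a ratio of 1.5. In the beta cluster the points climb from Hbb-y (0.55) to Hbb-bt (2.24), and in the alpha cluster Hbq1b (3.37) stands above its neighbours. Hbb-b1 and Hbb-b2 are not plotted.

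Promoter sequence was looked at because adult and embryonic genes of a cluster had different ratios. RefSeq starts on GRCm38.p6 were available for 7 of the 8 genes, all but Hbb-bh1. The 150 bases before the start are shown 5′ to 3′ for an embryonic and an adult gene of each cluster. They are Hba-x (chr11:32276450-32276599, plus strand), Hba-a1 (chr11:32283522-32283671, plus), Hbb-y (chr7:103853208-103853357, minus) and Hbb-bs (chr7:103827929-103828078, minus). Capitals mark, on either strand, CACCC (the core bound by KLF1), the CCAAT box, the letters TATAA of the core promoter, and the GATA motif written as AGATAA or AGATAG or TGATAA or TGATAG.
Hba-x: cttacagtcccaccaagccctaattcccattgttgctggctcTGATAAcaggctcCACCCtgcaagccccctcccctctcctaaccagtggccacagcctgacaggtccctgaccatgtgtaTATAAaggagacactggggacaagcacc
Hba-a1: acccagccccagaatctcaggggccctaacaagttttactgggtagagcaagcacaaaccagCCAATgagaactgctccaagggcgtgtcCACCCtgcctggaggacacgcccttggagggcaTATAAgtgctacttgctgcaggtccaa
Hbb-y: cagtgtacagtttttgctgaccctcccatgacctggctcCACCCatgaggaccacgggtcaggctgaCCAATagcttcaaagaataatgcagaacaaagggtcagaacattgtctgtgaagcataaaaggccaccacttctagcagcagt
Hbb-bs: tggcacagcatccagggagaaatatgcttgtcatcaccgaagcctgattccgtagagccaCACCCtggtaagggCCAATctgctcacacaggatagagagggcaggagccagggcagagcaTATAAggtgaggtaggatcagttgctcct

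Over 250 bases before the start, CACCC occurred in 6 of the 7 promoters, all but Hbq1b, and CCAAT in 6, all but Hba-x. These words are common, being present in 52.0% and 33.8% of all 32851 promoters of the RefSeq table. The GATA motif was found in 5 of the 7 (26.5% of all promoters) and TATAA in 6 (22.8%). TGACC, the half-site of nuclear receptors such as TR2 and TR4, which act on embryonic globin genes, occurred 5 times before Hbb-y, once before Hba-x and once before Hbb-bt, and was present in 35.2% of all promoters. One of its matches before Hbb-y overlaps CCAAT. The 250 bases before Hba-a1 and Hba-a2 are 6 edits apart, and those before Hbb-bs and Hbb-bt 76. A match describes the letters only.

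The balance of alpha-like to beta-like chains is reported per length. Summed FPKM of the 4 alpha-like genes was 1.33 times that of the 4 beta-like genes in control lung (1.32 to 1.34) and 1.19 times in the knockdown library (1.18 to 1.19). Among adult genes alone it was 1.52 and 1.25. With Hbb-b1 and Hbb-b2 counted as beta-like, the values were 0.961 and 0.974, so that the order of the libraries turned around. GENCODE lengths gave 0.952 and 0.927. Whether alpha or beta transcripts were in excess therefore depended on the lengths and on the treatment of the near-identical beta entries.

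Most genes of the other red cell lists were higher as well, and many by far more than the globins. Over 5 lists, 69 genes were measured, of which 55 were higher and none lower. These include 15 regulators linked to globin switching, many of them also expressed outside red cells. A total of 32 of the 69 genes had a ratio above that of Hbb-bt, the adult globin with the largest one. Of all 14569 measured genes, 3020 were higher and 950 had a ratio above that of Hbb-bt. Among the 69 genes, 19 had a log2 ratio above 4, and the share of all genes above 4 was not counted. In the membrane and cytoskeleton list all 15 genes were higher (median log2 4.57). Rhag, a Rh-complex channel protein, had 29 and 2030 reads (6.02, 5.52 to 6.63). Ermap, a red cell membrane protein, had 96 and 4765 (5.54), the blood group gene Rhd 114 and 4198 (5.11), and the spectrin chain Sptb 319 and 9473 (4.81). The list median was 2.71 above the log2 ratio of the adult globin sum. There were 29.4 globin reads for each read of this list in control lung and 9.50 in knockdown lung.

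Of 12 erythroid transcription and signalling genes 10 were higher, none was lower, and the median was 2.64. The highest were Klf1, the activator of adult beta-globin, with 73 and 3789 reads (5.60, 5.28 to 5.97), the repressor Gfi1b with 14 and 744 (5.60), Gata1, the master erythroid factor, with 60 and 2006 (4.97), and Nfe2 with 95 and 1599 (3.98). All 12 measured genes of red cell enzymes and maturation were higher (median 2.17), led by Hemgn, a nuclear protein of erythroblasts (68 and 4797 reads, 6.05), the red cell pyruvate kinase Pklr (66 and 4485, 5.99), the carbonic anhydrase Car1 (1 and 91 reads, 5.86, 3.91 to 11.74) and the ubiquitin ligase Trim58 (20 and 250, 3.53). Of the 13 genes of that list, the globin chaperone Ahsp was not matched to an entry by symbol and has no value here.

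Haem, the oxygen-binding group of every globin chain, is made from glycine and succinyl-CoA with iron inserted last. In the list of haem synthesis and iron supply 14 of 15 genes were higher and none was lower (median 2.17). Tfr2, a transferrin receptor, had 20 and 1189 reads (5.78, 5.18 to 6.53). The mitochondrial iron importer Slc25a37 had 1265 and 18764 (3.81), Cpox, an enzyme of haem synthesis, 962 and 12020 (3.56), and the iron reductase Steap3 121 and 1520 (3.56). For each read of this list there were 15.4 globin reads in control lung and 9.41 in knockdown lung. Globin reads per list read were thus fewer in knockdown lung for the membrane list and for this one. They were more for the erythroid factors (14.99 and 22.4), the enzyme and maturation list (10.8 and 12.7) and the switching list described next (5.07 and 19.4). Single genes weigh heavily in such sums. Ldb1 (log2 -0.33) held 10440 of the 17722 control reads of the erythroid list, and Prdx2 (0.94) 12801 of the 24590 of the enzyme list. The median log2 ratios of the erythroid and enzyme lists, 2.64 and 2.17, were above that of the globin sum (1.71), so the direction depends on the measure.

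Regulators linked to globin switching differed less. Of 15 genes, Prmt5 among them, 4 were higher and none was lower, a share not far from the 20.7% called higher among all measured genes. The median log2 ratio was -0.14 and the mean 0.33, so the list has no defined direction. The higher genes were Lin28b, a fetal-type RNA-binding protein (49 and 333 reads, 2.67), Myb, a factor of definitive progenitors (97 and 366, 1.83), Sox6 (1.66) and Zbtb7a (0.70), both repressors of embryonic or fetal globin genes. Sox6, Zbtb7a and Bcl11a fall outside the naming rule and were chosen after their values were seen. Bcl11a, the repressor best known for silencing embryonic and fetal beta-like genes, had 541 and 838 reads (0.55, 0.39 to 0.71) and did not pass the rule. Many of these genes are also expressed outside red cells.

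Ratios of the measured genes of the 5 red cell lists were set beside that of the adult globin sum (log2 1.86). Nearest were Myb of the switching list (1.83), the carbonic anhydrase Car2 (1.78) and the haem enzyme Urod (1.95), over 2 libraries only.

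**Figure D4:**
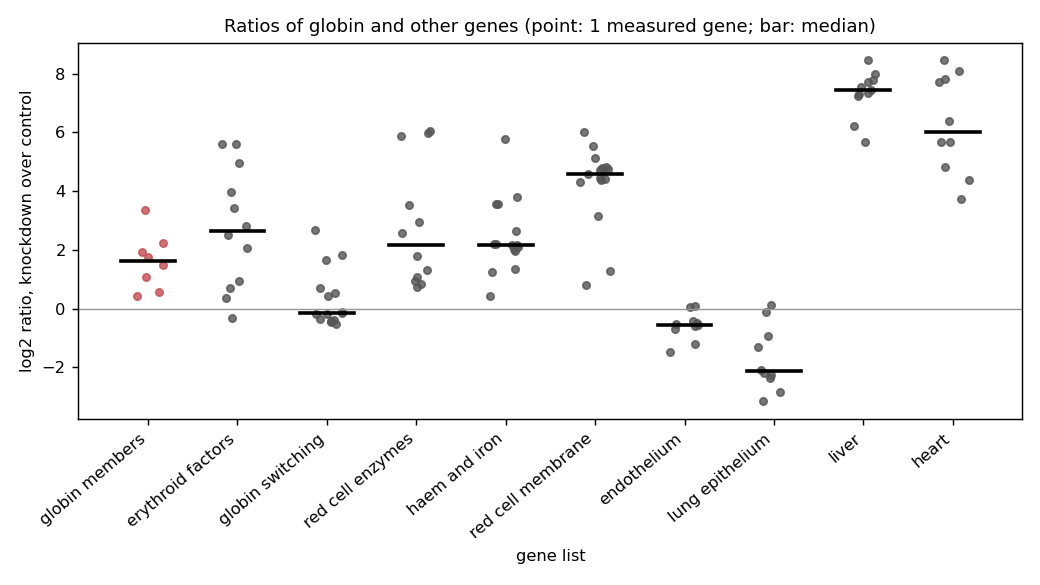
Log2 ratio of knockdown over control for measured genes of 10 lists, with 1 point per gene and a bar at the list median. The median of the 8 globin genes (red, 1.61) lies below that of the red cell membrane genes (4.57). Single points of these lists overlap, with Hbq1b at 3.37 and the membrane gene Epb41 at 0.80. Endothelial and lung epithelial genes have medians of -0.55 and -2.13, and liver and heart genes medians of 7.44 and 6.03.

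Markers of other cell types that travel with blood or line its vessels gave different values. Endothelial genes were not higher. Of 10, none was higher and 4 were lower (median -0.55, summed share of reads 0.112% and 0.0692%). The most abundant were Cdh5, with 5625 and 3914 reads (-0.61, lower by the rule), and Tie1, with 5538 and 4075 (-0.53, not past it). Of 8 megakaryocyte and platelet genes 4 were measured and all 4 were higher (median 1.68, 0.00212% and 0.00497%), with Itga2b at 396 and 909 reads (1.11) and Gp9 at 43 and 239 (2.38). Macrophage and leukocyte genes were higher in 9 of 10 (median 1.22, 0.0225% and 0.0446%), with Lyz2 at 892 and 2318 reads (1.29) and Csf1r at 930 and 1817 (0.88). The liver genes Alb (474 and 105934 reads, 7.72) and Afp (534 and 88862, 7.29) and the heart genes Tnnt2 (547 and 29385, 5.66) and Myl2 (83 and 19787, 7.80) had ratios above that of each of the 8 globin genes. Etv5 of the epithelial list had 7608 and 1915 reads (-2.07). In the mesenchyme list 7 of 10 genes were lower, with Tbx4 at 7324 and 1863 reads (-2.06) and Col1a2 at 39892 and 57253 (0.44).

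Globins outside red cells had values of their own. Myoglobin, Mb, the oxygen store of heart and skeletal muscle, had 26 control reads and 3126 knockdown reads (log2 6.80, 6.27 to 7.44), in the range of the heart genes. Cygb, a globin of fibroblast-like cells, had 540 and 627 (0.13, -0.04 to 0.30), and Ngb, a globin of neurons, had 174 and 38 (-2.26, -2.83 to -1.77). Of these 3 globins, Mb alone was higher and Ngb alone lower by the rule.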

How the data were processed

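Polyadenylated RNA of whole lung was sequenced in 2 libraries, 1 per group. Per the labels, TRIZOL was used for extraction and a NEBNext Ultra kit for library preparation. HTSeq 0.6.1, TopHat2 2.0.12, Bowtie2 2.2.3 and the genome build mm10 appear in the submitters' processing notes. Not given in the sources used here are the gene annotation, the read length, the strand setting and the treatment of multi-mapped reads. The authors deposited raw read counts and FPKM values for 41709 entries. Deposited FPKM equalled the count divided by a length and by the library total, with lengths whole within 0.001 bp in all 22831 genes with reads in both libraries. Symbols came from the RefSeq table of GRCm38.p6 (40269 entries matched).

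Scaling used edgeR 4.0.16 in R 4.3.3 (trimmed mean of M values, factors 1.04 and 0.963). Ratios carried a prior count of 0.5, made proportional to library size. Intervals are exact Clopper-Pearson intervals at 95%, and PCR copies are not independent molecules. Scripts were tested on simulated counts. Coding sequences came from GENCODE M21. Alternatives covered scaling (DESeq2 1.42.0 size factors among them), prior count, FPKM, read minimum and ratio.

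Named genes were the 8 members, other globins with reads, Prmt5 and Shh, and the 2 most abundant of each cell type list. Each red cell list gave up to 4 genes past the rule in the direction of its median and up to 2 in the opposite one. These were ranked by the interval bound nearest to 1. Also named were the 3 genes of the red cell lists nearest the adult globin sum. The members and lists were chosen with earlier results of these data known.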

Additional observations from a re-analysis of the deposited data

How the results depend on the processing

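With 1 library per group no replicate could be left out, and no difference was checked against a second pool. No paired analysis was possible because each group has a single library. The sums of all 8, of the adult and of the embryonic members kept their direction under the settings tried, and 6 of the 8 members were higher under each of 6 settings for calling genes. For the sum of the 8 members (log2 1.71), total counts gave 1.60, DESeq2 size factors 1.74, totals without the members 1.64, totals without red cell and mitochondrial genes 1.65, FPKM with either pseudocount 1.65, and adding Hbb-b1 and Hbb-b2, a setting chosen after seeing the data, 1.64. In the same order, the adult sum (1.86) gave 1.75, 1.89, 1.78, 1.80, 1.74 and 1.75. For the embryonic sum (0.54) the first 4 gave 0.43, 0.57, 0.46 and 0.48, and FPKM 0.42. Each of these scalings and the FPKM moved each sum outside its counting interval. The prior count did not, and at such read numbers it hardly could. A Wilson interval leaves the sums themselves unchanged, and its lower bound lay on the same side of no difference. Single members ranged from 0.33 to 0.46 for Hba-x, 0.45 to 0.58 for Hbb-y and 2.54 to 3.40 for Hbq1b.

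The embryonic share of the alpha cluster (5.03% in the control, 2.11% in the knockdown library) was 4.69% and 1.97% by FPKM, 5.43% and 2.26% with Hba-a1 alone, 40.1% and 24.5% with Hba-a2 alone, and 4.33% and 1.82% by GENCODE length. That of the beta cluster (27.1% and 11.97%) was 16.3% and 6.61% by FPKM, 33.4% and 16.3% with Hbb-bs alone, 59.1% and 31.1% with Hbb-bt alone, 27.5% and 12.2% by GENCODE length, and 20.4% and 9.92% with Hbb-b1 and Hbb-b2. It was lower in the knockdown library each time. GENCODE lengths were also added after seeing the data. The alpha to beta balance (1.33 and 1.19) was 1.02 and 0.988 from counts, 1.52 and 1.25 in adult genes, 0.961 and 0.974 with Hbb-b1 and Hbb-b2, and 0.952 and 0.927 by GENCODE length.

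Over all genes, 3020 were higher and 1795 lower. A minimum of 200 reads left 1956 higher, and a ratio of 2 left 703 lower. The share of higher among called genes was 62.7%, 52.3% with total counts, which shift the median of all genes to -0.12, and 74.4% at a ratio of 2. Median log2 ratios of the lists moved for enzymes (2.17) to 2.80 with the mean and 1.78 at 200 reads, for haem and iron (2.17) to 2.48 with the mean and 2.06 with total counts, and for membrane genes (4.57) to 4.20 with the mean. The switching list turned from -0.14 to 0.33 with the mean. The cause was not tested. Depth limits Hbq1b, Hbb-bh1, Hbq1a and Hbb-bh2, whose reads are few.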
